A study of Danio rerio with 6 samples.

Results

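The 8 genes described here, plp1b, mpz, cldnk, mbpa, mbpb, tspan2a, fa2h and cnp, encode proteins or enzymes of myelin, and they were read in cells sorted as microglia from the brains of adult zebrafish. They were chosen by gene symbol, with earlier results of these data known, and each symbol matched 1 of the 21860 genes in the deposited table. RNA had been sequenced from 6 libraries of GFP-positive brain cells, 2 for each of 3 genotypes. The compound mutants carried the genotype csf1ra-/-;b+/-, which is homozygous for the csf1ra mutation with 1 mutant copy of csf1rb. The csf1ra-/- fish were homozygous for the csf1ra mutation, and the control fish were wild type at both genes. All 3 groups shared the mpeg1-GFP line, in which a macrophage promoter drives the green reporter, the strain background TLF x AB and an age of 9 to 12 months. A description label of the compound mutants names both receptors as lost, and the genotype label was followed here. Zebrafish csf1ra and csf1rb encode the receptors of the macrophage growth factors colony-stimulating factor 1 and interleukin 34. Whether paired libraries of 1 genotype were made from separate fish or pools is not given by the labels. The p-values therefore cover just the spread between libraries, part or all of which may be technical.

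Myelin is the stack of membrane that oligodendrocytes wrap around axons in the brain and Schwann cells wrap around axons in nerves. Proteolipid protein and, in fish, myelin protein zero hold the outer faces of the layers together in the brain, and myelin basic protein holds the inner faces together. The membrane is rich in galactolipids with 2-hydroxylated fatty acids. The messenger RNA of myelin basic protein is known to be carried out into the myelin sheath, and microglia are known to take up myelin and dying cells.

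The libraries held 15011963 and 13543998 reads in the compound mutants, 8028386 and 7874979 reads in csf1ra-/-, and 4241988 and 7830510 reads in control. Genes with at least 1 read numbered 18383 and 18047 in the compound mutants, 20971 and 20119 in csf1ra-/-, and 21452 and 20723 in control. Levels are given as the deposited signal, headed CPM, in which reads are divided by an effective library size. The effective size was 0.823 and 0.802 of the total reads in the compound mutants, 1.07 and 0.810 of it in csf1ra-/-, and 1.73 and 1.03 of it in control, so that the first control library was scaled down most. On a scale of total reads the median gene moved by -0.70 on the log2 scale in compound mutants against control, by -0.45 in csf1ra-/- against control and by -0.30 in compound mutants against csf1ra-/-, where on the deposited scale it moved by -0.16, -0.03 and -0.17. The label of the cells was set beside 28 macrophage and microglia markers, of which 27 were in the table. All 27 had a signal of at least 1 in each of the 6 libraries, cd74a, cd74b and apoeb among them. This bar is low and does not by itself identify the cells. Of 17 neuronal markers, 7 and 11 also reached it in the compound mutants, 11 and 11 in csf1ra-/-, and 14 and 14 in control. The macrophage and microglia markers summed to 68254 and 85666 in the compound mutants, 40348 and 32462 in csf1ra-/-, and 31015 and 64501 in control. The largest part of each sum was cd74a, at 28192 and 35939 in the compound mutants, 17930 and 15911 in csf1ra-/-, and 14409 and 28764 in control. Of these markers aif1l rose in compound mutants against control, with a signal of 495 and 866 in the compound mutants, 241 and 139 in csf1ra-/-, and 33.5 and 93.7 in control (log2 difference 3.52 ± 0.61, SE, limma adjusted p = 0.0373). Both compound mutant libraries lay above both control libraries for 10 of the 27 and below them for 6, against 25.3% and 33.3% of all genes. The csf1ra gene itself had a signal of 18.5 and 7.73 in the compound mutants, 42.6 and 24.3 in csf1ra-/-, and 37.7 and 67.9 in control, while csf1rb had 329 and 173 in the compound mutants, 1432 and 783 in csf1ra-/-, and 901 and 1356 in control. Where in the gene the mutation lies is not stated, so the read count of csf1ra is no check of the genotype.

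In compound mutants, 3 of the 8 genes rose against control: plp1b, mpz and cldnk, each more than 10-fold by the ratio of mean signals. The test was limma on log2 of signal plus 1, across 21316 genes, with p-values adjusted by Benjamini and Hochberg and a threshold of 0.05. By the same rule 0.868% of all genes rose. In csf1ra-/-, none of the 8 passed the test against control, and no other gene did (0% of all genes). The sorted cells are a bulk sample, so more cells of a type and more RNA per cell cannot be told apart in any of these values.

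The gene plp1b encodes proteolipid protein, the most abundant protein of brain myelin in mammals. It had a signal of 1023 and 1928 in the compound mutants, 145 and 11.1 in csf1ra-/-, and 62.0 and 44.1 in control. Both compound mutant libraries lay above the other 4, and the csf1ra-/- libraries lay on either side of control. The mean was 1475 ± 640 in the compound mutants, 78.2 ± 94.9 in csf1ra-/- and 53.1 ± 12.7 in control (SD, n = 2 each). Compound mutants against control gave a ratio of means of 27.8 and a log2 difference of 4.72 ± 0.95 (SE, limma adjusted p = 0.0496). That adjusted p lay just under the threshold, and the call was lost on total reads at an adjusted p of 0.0505 with a log2 difference of 4.01.

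Myelin protein zero, encoded by mpz, is the adhesion protein of the compact layers. Its signal was 573 and 749 in the compound mutants, 24.8 and 40.0 in csf1ra-/-, and 42.7 and 72.0 in control. The compound mutant libraries lay above the other 4, and both csf1ra-/- libraries lay below both control libraries. The mean was 661 ± 124 in the compound mutants, 32.4 ± 10.8 in csf1ra-/- and 57.4 ± 20.7 in control (SD, n = 2 each). Against control, mpz rose 11.5-fold by ratio of means in the compound mutants, with a log2 difference of 3.54 ± 0.53 (SE, limma adjusted p = 0.0256), and its call also held on total reads.

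The tight-junction protein claudin k, encoded by cldnk, is used in zebrafish as a marker of myelinating oligodendrocytes and Schwann cells. It had a signal of 146 and 229 in the compound mutants, 6.2 and 2.67 in csf1ra-/-, and 16.2 and 15.6 in control. The lowest of these values, in the second csf1ra-/- library, rested on 17 reads. The 3 groups did not overlap. The mean was 187 ± 58.4 in the compound mutants, 4.43 ± 2.5 in csf1ra-/- and 15.9 ± 0.442 in control (SD, n = 2 each). Compound mutants against control gave a ratio of means of 11.8 and a log2 difference of 3.44 ± 0.66 (SE, limma adjusted p = 0.0457), which on total reads was 2.74 with an adjusted p of 0.0652.

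The paralogs mbpa and mbpb both encode myelin basic protein, and their levels were ordered differently across the genotypes. The signal of mbpa was 718 and 1278 in the compound mutants, 94.8 and 96.6 in csf1ra-/-, and 176 and 195 in control. As for mpz and cldnk, the compound mutants were highest and csf1ra-/- lowest, with no overlap between groups. The log2 difference of mbpa between compound mutants and control was 2.36 ± 0.49 (SE, limma adjusted p = 0.0510), just over the threshold, and edgeR on the recovered reads put it under the threshold at an adjusted p of 0.0433. The signal of mbpb was 174 and 115 in the compound mutants, 94.2 and 91.0 in csf1ra-/-, and 23.3 and 36.7 in control. Here the control libraries were lowest, and csf1ra-/- lay between. The log2 difference of mbpb was 2.24 ± 0.52 for compound mutants against control (SE, limma adjusted p = 0.0628) and 1.63 ± 0.52 for csf1ra-/- against control (SE, limma adjusted p = 0.403). The counting of reads shared by similar gene copies is not given in the sources used here, so how reads common to mbpa and mbpb were assigned is not known.

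**Figure D1:**
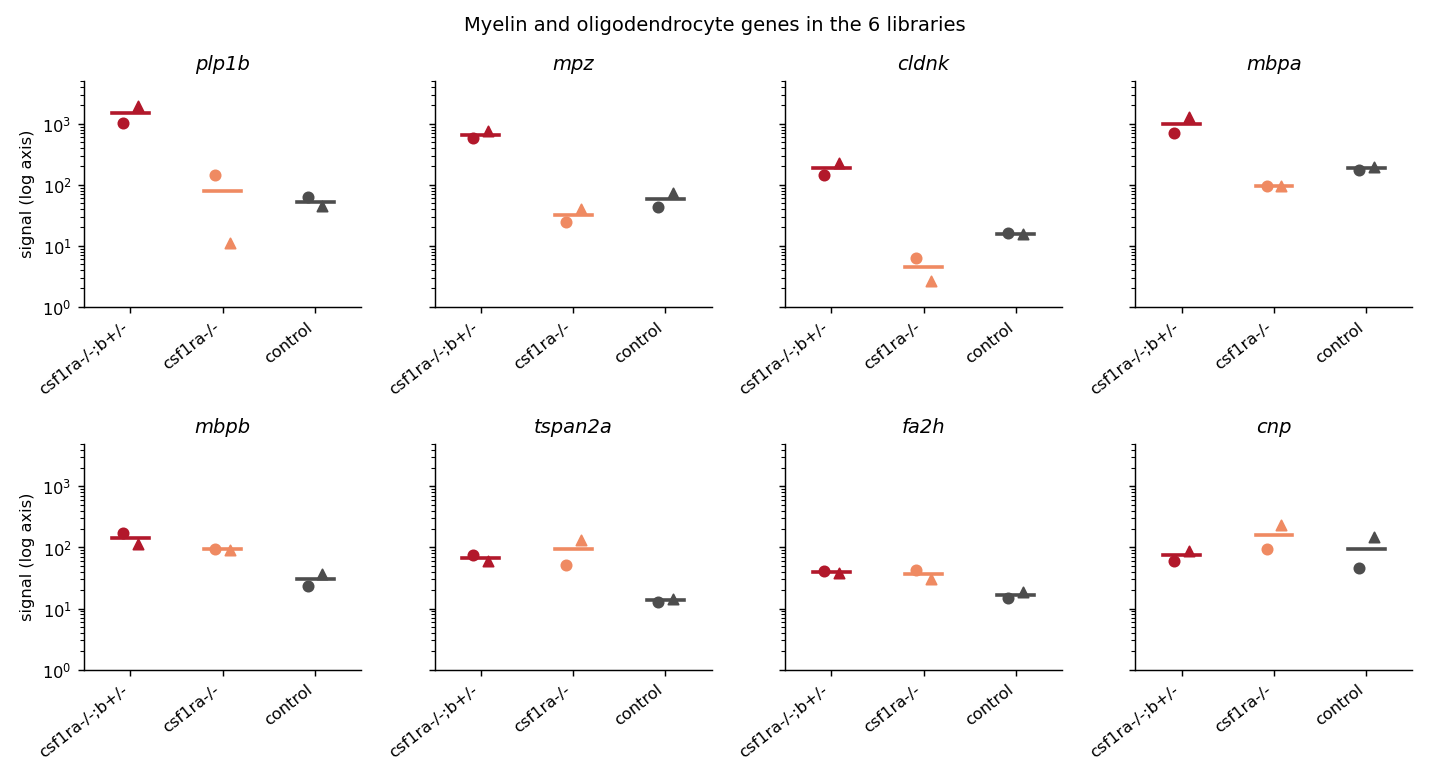
Deposited signal (log axis) of the 8 myelin genes in each library, with the compound mutants (csf1ra-/-;b+/-) at the left of each panel, csf1ra-/- in the middle and control at the right. Circles are replicate 1, triangles replicate 2 and horizontal lines group means; plp1b, mpz, cldnk and mbpa stand apart in the compound mutants, at 146 to 1928, while tspan2a and fa2h are high in both mutant groups and cnp overlaps between compound mutants and control.

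A different order was seen for tspan2a and fa2h, which overlapped between both mutant groups and were lowest in control. All 4 mutant libraries lay above both control libraries for 3 of the 8, these and mbpb, where 10.9% of all genes had this order. On total reads fa2h lost it, and 5.34% of all genes had it. Tetraspanin 2, encoded by tspan2a, is a membrane protein known from oligodendrocytes of mammals. Its signal was 76.4 and 59.0 in the compound mutants, 52.5 and 134 in csf1ra-/-, and 12.9 and 14.3 in control. Compound mutants against control gave 2.22 ± 0.61 on the log2 scale (SE, limma adjusted p = 0.0818), and csf1ra-/- against control gave 2.54 ± 0.61 (SE, limma adjusted p = 0.359). Neither passed the test, although both mutant groups lay above control with no overlap. In the authors' deposited table tspan2a was higher in compound mutants against control (log2 fold change 2.31, FDR 0.00999) and in csf1ra-/- against control (log2 fold change 2.77, FDR 0.0175).

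The enzyme fatty acid 2-hydroxylase, encoded by fa2h, hydroxylates the fatty acids of myelin galactolipids. Its signal was 40.9 and 37.9 in the compound mutants, 42.2 and 30.9 in csf1ra-/-, and 14.7 and 18.5 in control. The mutant groups overlapped with each other and not with control on the deposited scale. On total reads the csf1ra-/- libraries no longer both lay above control. The log2 difference was 1.21 ± 0.59 for compound mutants against control (SE, limma adjusted p = 0.219) and 1.08 ± 0.59 for csf1ra-/- against control (SE, limma adjusted p = 0.575), and neither passed.

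The last of the 8, cnp, encodes the myelin enzyme 2',3'-cyclic nucleotide phosphodiesterase, which in mammals sits in the cytoplasm-filled channels of the sheath. Its signal was 60.5 and 87.6 in the compound mutants, 94.9 and 229 in csf1ra-/-, and 45.8 and 146 in control. Compound mutants and control overlapped. The log2 difference between them was -0.17 ± 0.67 (SE, limma adjusted p = 0.893), with a 95% interval of -1.66 to 1.33. The interval's upper bound lies below the log2 differences of plp1b, mpz, cldnk, mbpa, mbpb and tspan2a in the same comparison. The 95% intervals of mbpa (1.27 to 3.45), mbpb (1.08 to 3.41) and tspan2a (0.86 to 3.59) reach below that bound and so overlap with that of cnp.

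**Figure D2:**
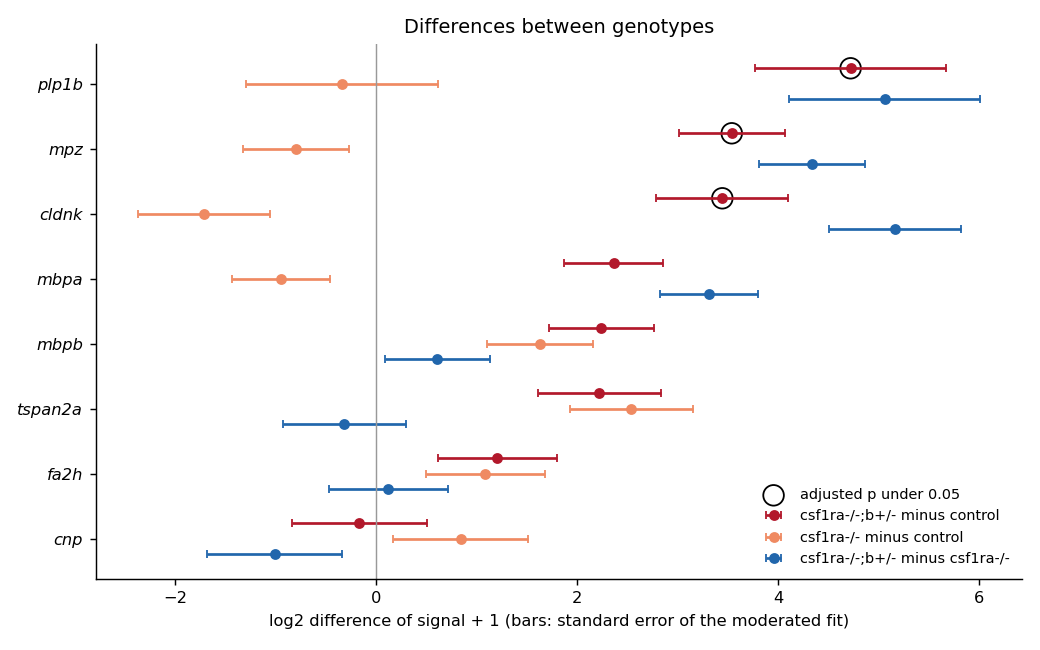
Log2 differences of the 8 genes from limma on log2 of signal plus 1, for compound mutants against control, csf1ra-/- against control and compound mutants against csf1ra-/-, with bars of 1 SE and black rings where the adjusted p was under 0.05. Rings stand on plp1b (4.72), mpz (3.54) and cldnk (3.44) for compound mutants against control and nowhere else.

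Counted over the 8 genes, both compound mutant libraries lay above both control libraries for 7, all but cnp, against 25.3% of all genes tested. As the 8 were chosen with earlier results of these data known, this and the other counts of them beside all genes are a description. The median log2 difference of the 8 was 2.30, and that of all genes tested was -0.16. Among the 12620 genes with at least 50 reads in 2 libraries, the 8 included, the median was 0.50. With edgeR's quasi-likelihood test on recovered reads, 4 of the 8 rose (plp1b, mpz, cldnk and mbpa), against 0.98% of all genes. In the authors' deposited table, by contrast, the count was 6 of the 8 higher at an FDR under 0.05, all but fa2h and cnp, against 6.5% of all genes there. The calls were not stable when 1 library was left out. With either csf1ra-/- library left out they were lost, though such a library enters this comparison only through the estimate of the spread. The log2 differences were unchanged there. Over the 6 omissions the log2 difference ranged from 4.26 to 5.18 for plp1b, from 3.17 to 3.91 for mpz and from 3.12 to 3.77 for cldnk.

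Between csf1ra-/- and control, limma called 0 of the 8 and 0 of all 21316 genes. At an unadjusted p under 0.05 there were 3 of the 8 (mbpb and tspan2a higher, cldnk lower) against 10.2% of all genes. With edgeR 0 of the 8 passed (0.0375% of all genes), and with DESeq2 1 rose, tspan2a at an adjusted p of 0.00918, against 1.29% of the genes it gave an adjusted p. In the authors' deposited table tspan2a alone of the 8 was higher at an FDR under 0.05, against 0.618% of all genes. The groups did not overlap for 6 of the 8. Both csf1ra-/- libraries were higher for mbpb, tspan2a and fa2h, an order seen for 18.6% of all genes, and lower for mpz, cldnk and mbpa, an order seen for 20.2%. The median log2 difference of the 8 was 0.25, and that of all genes -0.03. Among the 12620 genes with at least 50 reads in 2 libraries the median was 0.24, close to that of the 8. The log2 difference was -0.80 ± 0.53 for mpz, -0.95 ± 0.49 for mbpa, -1.72 ± 0.66 for cldnk, -0.34 ± 0.95 for plp1b and 0.84 ± 0.67 for cnp, each as a difference with its SE, and the lowest limma adjusted p among these was 0.430, for cldnk. The direction of plp1b was not stable: it was 1.46 without the second csf1ra-/- library and -2.14 without the first.

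Between compound mutants and csf1ra-/-, the same 4 structural genes stood out by size, and none passed limma's test. The log2 difference was 4.34 ± 0.53 for mpz and 5.16 ± 0.66 for cldnk (SE, limma adjusted p = 0.0519 for both), 3.31 ± 0.49 for mbpa (SE, limma adjusted p = 0.104) and 5.06 ± 0.95 for plp1b (SE, limma adjusted p = 0.143). By ratio of means these were 20.4-fold for mpz, 42.2-fold for cldnk, 10.4-fold for mbpa and 18.9-fold for plp1b. Limma called 0.00938% of all genes in this comparison, and at an unadjusted p under 0.05 it had 4 of the 8 higher against 6.44% of all genes. With edgeR 3 of the 8 rose, mpz, cldnk and mbpa, against 0.0422% of all genes, and with DESeq2 4 did, with plp1b added, against 2.72% of the genes it gave an adjusted p. In the authors' deposited table there were 4 of the 8 higher at an FDR under 0.05 against 1.99% of all genes. The other 4 genes gave log2 differences of 0.61 ± 0.52 for mbpb, -0.32 ± 0.61 for tspan2a, 0.12 ± 0.59 for fa2h and -1.01 ± 0.67 for cnp (SE), with limma adjusted p-values of 0.542 or more. The 95% interval was -0.55 to 1.78 for mbpb, -1.68 to 1.05 for tspan2a and -1.19 to 1.44 for fa2h.

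The order of all 6 libraries therefore took several forms among genes of the same membrane. Both compound mutant libraries lay above the other 4 for 5 of the 8 (plp1b, mpz, cldnk, mbpa and mbpb) on the deposited scale, against 14.4% of all genes. On total reads they did so for 4, without mbpb, against 8.93% of all genes. For mpz, cldnk and mbpa the compound mutants lay above control and csf1ra-/- below control on either scale. This order was seen for 1.3% of all genes on the deposited scale and 1.36% on total reads. Of the other genes in the lists read here, nfasca and mpeg1.1, the gene whose promoter drives the reporter, had it on either scale. The genes cers2a and ptprz1b had it on the deposited scale only, and the macrophage marker slc7a7 on total reads only. These comparisons share the control libraries, and the orders are a description of these 6 libraries.

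The make-up of the reads over the 8 genes differed as well. They summed to 34749 and 48690 reads in the compound mutants, 4747 and 4049 reads in csf1ra-/-, and 2894 and 4391 reads in control. Per 1e6 total reads that was 2315 and 3595 in the compound mutants, 591 and 514 in csf1ra-/-, and 682 and 561 in control, so that the csf1ra-/- and control libraries lay close together in the sum. The share of these reads that fell on plp1b, mpz, cldnk and mbpa, a grouping made after their values were seen, was 87.5% (95% Wilson interval 87.1 to 87.8) and 93.3% (93.1 to 93.5) in the compound mutants. The same share was 48.9% (47.4 to 50.3) and 23.7% (22.4 to 25.0) in csf1ra-/-, and 75.4% (73.8 to 77.0) and 60.3% (58.8 to 61.7) in control. The 3 groups did not overlap in this share, and the csf1ra-/- libraries were lowest. As the genes were grouped by their values in these libraries, this order follows in part from the choice and is no separate result. These intervals cover counting error only, since amplified reads are not independent molecules.

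Ratios between pairs of the genes do not depend on the scaling of a library. Only some of the possible pairs were computed, and among these just mpz over cnp separated all 3 groups, as the signal of mpz did by itself. Reads of mbpa over reads of mbpb came to 4.12 and 11.1 in the compound mutants, 1.01 and 1.06 in csf1ra-/-, and 7.57 and 5.33 in control. Compound mutants and control overlapped in this ratio, and csf1ra-/- lay below both. Reads of mpz over reads of cnp came to 9.47 and 8.55 in the compound mutants, 0.261 and 0.175 in csf1ra-/-, and 0.932 and 0.494 in control, with no overlap between groups. Reads of mpz over reads of cldnk came to 3.93 and 3.28 in the compound mutants, 4.00 and 15.0 in csf1ra-/-, and 2.64 and 4.63 in control, where control overlapped with both mutant groups. Reads of plp1b over reads of mpz came to 1.78 and 2.57 in the compound mutants, 5.86 and 0.278 in csf1ra-/-, and 1.45 and 0.612 in control, where the csf1ra-/- libraries lay on either side of all the others. Whether the reads came from oligodendrocytes sorted along, from myelin carried over or taken up, or from the sorted cells themselves was not tested.

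**Figure D3:**
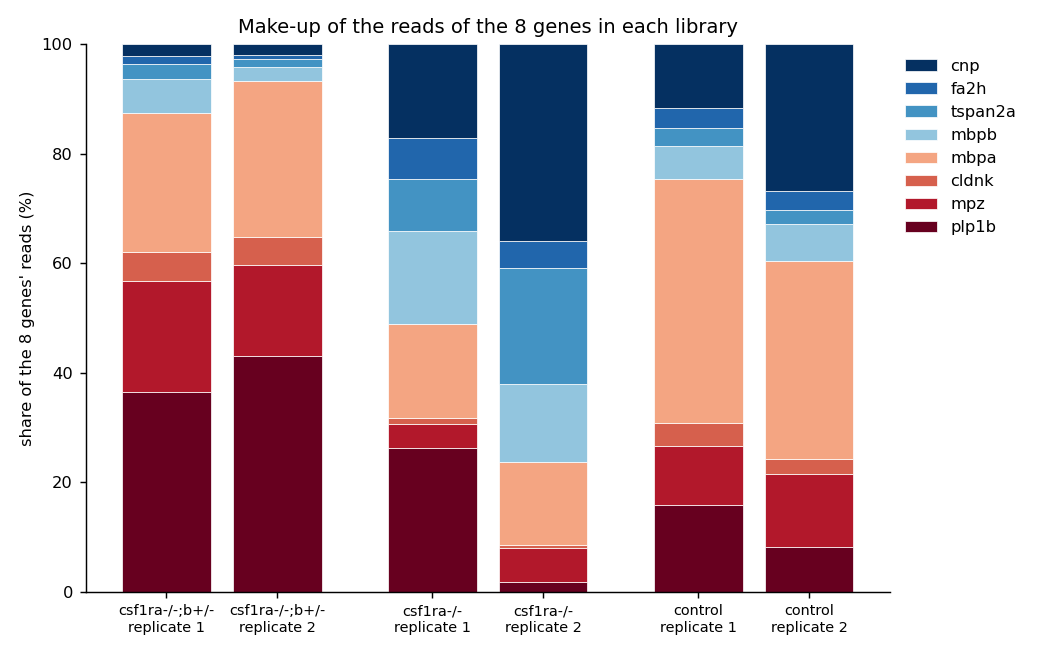
Share of the reads over the 8 myelin genes that fell on each gene, in percent, 1 bar per library, with the compound mutants first, csf1ra-/- next and control last. The reads on plp1b, mpz, cldnk and mbpa make up 87.5% and 93.3% of a bar in the compound mutants, 48.9% and 23.7% in csf1ra-/-, and 75.4% and 60.3% in control. This grouping was made after the values were seen.

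Other genes of the myelin membrane and its lipids were read from lists of symbols. Of 18 other membrane genes, 9 were in the table and tested, and none passed limma's test in any of the 3 comparisons. In compound mutants both libraries lay above the other 4 for 3 of the 9, cldn19, nfasca and mag, against 14.4% of all genes, and below the other 4 for another 3, tmem98, gldn and cntn1b, against 21.2% of all genes. On total reads the count above was 2, against 8.93% of all genes, and the count below stayed at 3, against 24.9%. The 3 lower genes had few reads, at most 2 in either compound mutant library. Claudin 19, a junction protein of Schwann cells in mammals, had a signal of 40.5 and 42.4 in the compound mutants, 7.72 and 4.23 in csf1ra-/-, and 2.45 and 6.55 in control (log2 difference against control 3.06 ± 0.79, SE, limma adjusted p = 0.0746). The neurofascin gene nfasca, which serves the junction between axon and glia, had a signal of 29.9 and 39.7 in the compound mutants, 5.26 and 5.18 in csf1ra-/-, and 6.66 and 6.55 in control (2.22 ± 0.73, SE, limma adjusted p = 0.105). The order held on total reads for cldn19 and nfasca but not for mag, the myelin-associated glycoprotein, with 10.5 and 14.1 in the compound mutants, 8.30 and 0.63 in csf1ra-/-, and 5.17 and 5.19 in control.

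The other membrane genes picked by mean signal were uneven within groups. The second proteolipid protein gene, plp1a, had a signal of 6.23 and 7.27 in the compound mutants, 1.40 and 10.0 in csf1ra-/-, and 0.54 and 6.42 in control. The peripheral myelin gene pmp22a had 10.9 and 0 in the compound mutants, 0 and 0 in csf1ra-/-, and 1.90 and 0.25 in control, and tspan2b had 10.1 and 0 in the compound mutants, 0.12 and 0.16 in csf1ra-/-, and 0.27 and 1.36 in control. None of these 3 separated compound mutants from control. The median log2 difference of the 9 was 0.94 for compound mutants against control, -0.67 for csf1ra-/- against control and 1.55 for compound mutants against csf1ra-/-, where all genes had -0.16, -0.03 and -0.17.

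Of 13 other enzymes of myelin lipid synthesis, 12 were in the table and tested, and none passed limma's test in any comparison. Their median log2 difference was -0.23 for compound mutants against control and 0.01 for csf1ra-/- against control, where all genes had -0.16 and -0.03. The ceramide desaturase gene degs1 had a signal of 149 and 162 in the compound mutants, 52.4 and 46.0 in csf1ra-/-, and 51.1 and 37.0 in control (1.81 ± 0.50 against control, SE, limma adjusted p = 0.0823). The galactosyltransferase gene ugt8, which makes galactosylceramide, had 8.17 and 6.91 in the compound mutants, 12.6 and 20.4 in csf1ra-/-, and 15.8 and 10.5 in control, with the compound mutants below the other 4 libraries. The fatty acid elongase elovl1b had 430 and 204 in the compound mutants, 225 and 266 in csf1ra-/-, and 125 and 197 in control. A second elongase, elovl1a, had 0 and 19.1 in the compound mutants, 0.12 and 30.0 in csf1ra-/-, and 0.14 and 0.12 in control. Both serine palmitoyltransferase genes overlapped between compound mutants and control, with 46.7 and 35.0 for sptlc2b in the compound mutants, 37.4 and 33.4 in csf1ra-/-, and 39.4 and 66.3 in control, and with 32.2 and 12.1 for sptlc1 in the compound mutants, 22 and 29.8 in csf1ra-/-, and 16.6 and 28.8 in control.

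The oligodendrocyte lineage was read from 23 transcription factors and progenitor markers, of which 16 were in the table and tested. None passed limma's test in any comparison. The median log2 difference of the 16 was -0.76 for compound mutants against control, -0.38 for csf1ra-/- against control and -0.75 for compound mutants against csf1ra-/-. All genes had -0.16, -0.03 and -0.17. Many of the 16 had under 20 reads: 8 and 11 in the compound mutants, 7 and 12 in csf1ra-/-, and 7 and 7 in control. Among the 12620 genes with at least 50 reads in 2 libraries, the median was 0.50 for compound mutants against control. Genes with few reads were not compared as a class, so a difference particular to the lineage was not tested. The gene olig2 encodes a transcription factor needed to form oligodendrocytes and motor neurons. It had a signal of 52.2 and 25.6 in the compound mutants, 1.17 and 0 in csf1ra-/-, and 0.14 and 3.70 in control, which rested on 645 and 278 reads in the compound mutants, 10 and 0 reads in csf1ra-/-, and 1 and 30 reads in control. The compound mutants lay above the other 4 libraries on either scale, with a log2 difference against control of 4.02 ± 0.98 (SE, limma adjusted p = 0.0678).

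The gene sox10, whose factor drives myelin genes in oligodendrocytes and Schwann cells, had a signal of 16.3 and 9.94 in the compound mutants, 1.29 and 0.16 in csf1ra-/-, and 0.41 and 8.40 in control (1.92 ± 1.04 against control, SE, limma adjusted p = 0.258). The receptor phosphatase gene ptprz1b had 18.3 and 6.81 in the compound mutants, 3.86 and 0 in csf1ra-/-, and 4.76 and 4.2 in control. For both, the compound mutants lay above the other 4 libraries on the deposited scale but not on total reads. The myelin regulatory factor gene myrf, which mature oligodendrocytes need to make myelin, had a signal of 0.49 and 1.1 in the compound mutants, 5.50 and 3.14 in csf1ra-/-, and 5.71 and 0.62 in control.

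The progenitor marker pdgfra had a signal of 3.40 and 0.09 in the compound mutants, 4.44 and 0.31 in csf1ra-/-, and 6.94 and 2.72 in control. Of the other lineage genes picked by mean signal, znf536 had 25.0 and 7.64 in the compound mutants, 14.4 and 12.4 in csf1ra-/-, and 13.5 and 2.59 in control. The Wnt pathway factor tcf7l2 had 7.28 and 1.38 in the compound mutants, 11.6 and 21.5 in csf1ra-/-, and 11.7 and 4.82 in control, and ptprz1a had 5.58 and 0.64 in the compound mutants, 4.79 and 2.35 in csf1ra-/-, and 9.52 and 18.5 in control. No value of the other 8 that were detected, cspg4, erbb3b, nkx6.2, egr2b, lingo1b, enpp6, sox8a and nkx2.2a, reached a signal of 6. Both compound mutant libraries lay above both control libraries for 4 of the 16 and below them for 7, against 25.3% and 33.3% of all genes. The summed signal of the 16 was 132 and 57.5 in the compound mutants, 65.1 and 48.3 in csf1ra-/-, and 68.4 and 60.0 in control, with 2 and 3 of the genes at 0 reads in the compound mutants, 0 and 5 in csf1ra-/-, and 1 and 0 in control.

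**Figure D4:**
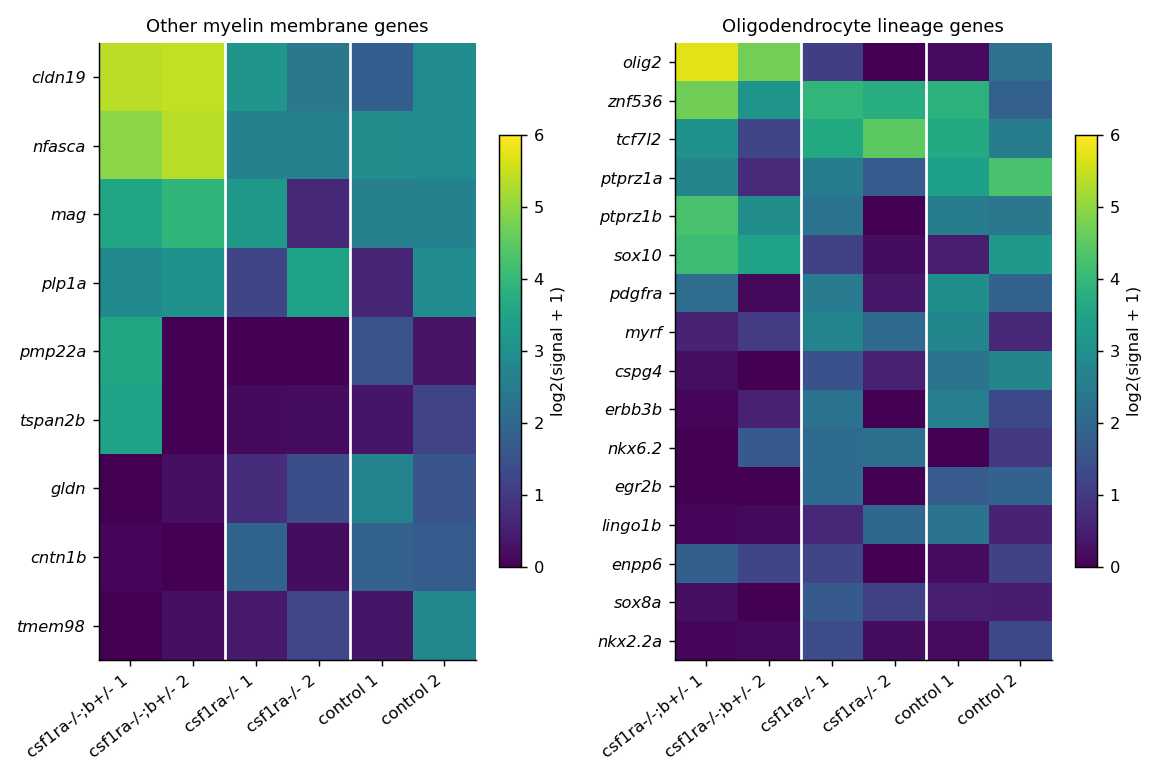
Heat maps of log2 of signal plus 1 for the 9 other myelin membrane genes (left) and the 16 oligodendrocyte lineage genes (right), with 1 row per gene and 1 column per library, the compound mutants first, csf1ra-/- next and control last. Brighter cells are higher; cldn19, nfasca and olig2 are brightest in both compound mutant libraries, at signals of 25.6 to 52.2.

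Markers of other cells were read beside the myelin genes. Of 23 neuronal markers 17 were in the table, map2, elavl4 and elavl3 among them, and none passed limma's test. Their summed signal was 19.7 and 104 in the compound mutants, 53.2 and 65.7 in csf1ra-/-, and 71.0 and 92.9 in control, and the compound mutant libraries lay at both ends of this range. Gene by gene, both compound mutant libraries lay above both control libraries for 0 of the 17, against 25.3% of all genes. They lay below both for 8, against 33.3% of all genes. Under 20 reads were 11 and 7 of the 17 in the compound mutants, 7 and 11 in csf1ra-/-, and 7 and 6 in control. As for the lineage genes, genes with as few reads were not compared as a class. In the first compound mutant library, where the neuronal sum was lowest of all 6 and 4 of the 17 were at 0 reads, mpz had a signal of 573 and plp1b of 1023. In the second compound mutant library the neuronal sum was the highest, with 3 of the 17 at 0 reads. There mpz had a signal of 749 and plp1b of 1928, both above the first compound mutant library.

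Of 20 markers of radial glia, the astrocyte-like cells of the fish brain, 18 were in the table. As her4.2 and id1 each matched 2 gene IDs, the list came to 20 genes, of which 19 were tested. Their summed signal was 2115 and 1760 in the compound mutants, 1016 and 874 in csf1ra-/-, and 830 and 2534 in control, and the compound mutants overlapped with control in this sum, most of which was glula. Gene by gene, both compound mutant libraries lay above both control libraries for 7 of the 19 (glulb, atp1b4, mdka, fabp7a, vim, cx43 and an id1 gene) and below them for 1, against 25.3% and 33.3% of all genes. On total reads the count above was 5, against 15.3% of all genes. Among them glulb, a glutamine synthetase gene, rose in compound mutants, with a signal of 286 and 315 in the compound mutants, 31.1 and 31.4 in csf1ra-/-, and 3.54 and 8.64 in control (5.51 ± 0.59 against control, SE, limma adjusted p = 0.00776). The other glutamine synthetase gene, glula, had 1566 and 1144 in the compound mutants, 789 and 603 in csf1ra-/-, and 714 and 2392 in control. The gap junction gene cx43 had 117 and 68.1 in the compound mutants, 56.7 and 63.0 in csf1ra-/-, and 40.5 and 18.8 in control. At 0 reads were 2 and 2 of the 20 in the compound mutants, 0 and 1 in csf1ra-/-, and none in control. Of the 20, 9 and 3 had under 20 reads in the compound mutants, 8 and 7 in csf1ra-/-, and 11 and 8 in control.

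Vessel markers, 8 of 14 in the table with pecam1 among them, summed to 326 and 291 in the compound mutants, 292 and 306 in csf1ra-/-, and 182 and 451 in control. Most of each sum was pecam1, with 287 and 280 in the compound mutants, 261 and 246 in csf1ra-/-, and 149 and 407 in control, so the sum says little of the other vessel markers. Lymphocyte markers, 9 of 14 in the table, summed to 121 and 105 in the compound mutants, 84.2 and 242 in csf1ra-/-, and 31.4 and 53.5 in control. Neutrophil markers, 3 of 7 in the table, summed to 5.66 and 21.3 in the compound mutants, 36.1 and 21.2 in csf1ra-/-, and 16.6 and 8.27 in control. Red cell and thrombocyte markers, 5 of 10 in the table, summed to 4.21 and 0.921 in the compound mutants, 5.03 and 4.86 in csf1ra-/-, and 19.2 and 8.40 in control. None of the members of these 4 lists passed limma's test in compound mutants against control. Only the lymphocyte sum of these 4 was higher in both compound mutant libraries than in both control libraries, and it was highest in the second csf1ra-/- library. The part of any of these cells in the myelin values was not tested.

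**Figure D5:**
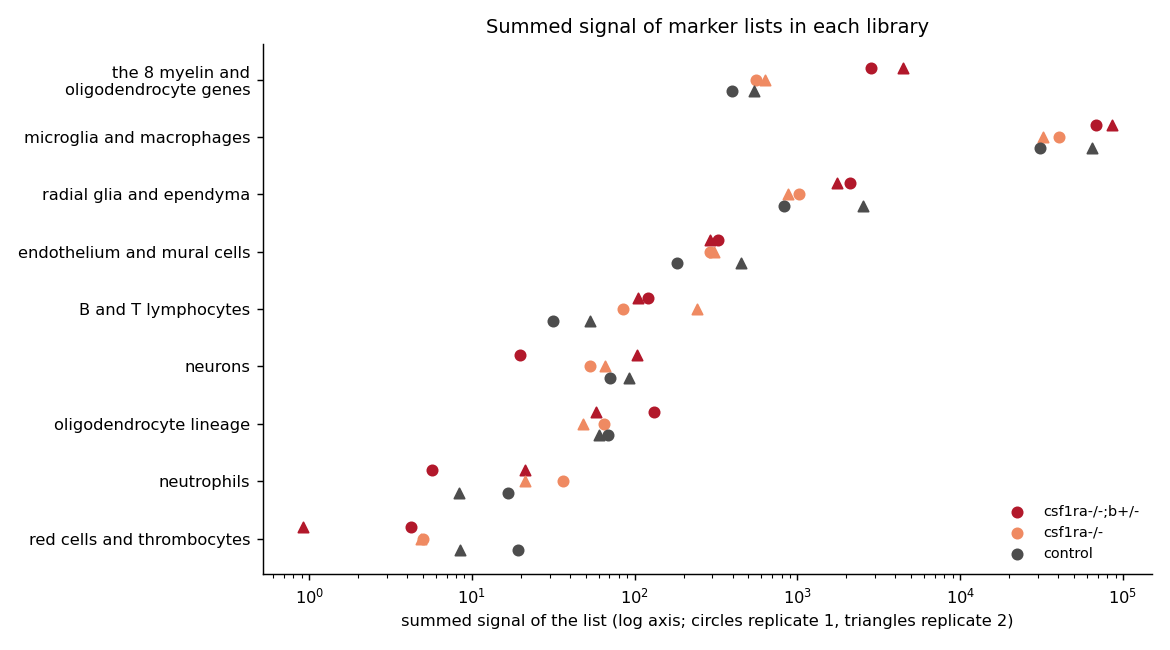
Summed deposited signal (log axis) of the 8 myelin genes and of 8 marker lists, 1 line per list, with circles for replicate 1 and triangles for replicate 2, and the compound mutants above csf1ra-/- and control within each line. The 8 myelin genes sum to 2812 and 4483 in the compound mutants, 555 and 635 in csf1ra-/-, and 394 and 542 in control.

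Among 4337 other genes with a mean signal of at least 20, the 5 whose log2 signal over the 6 libraries was most like the mean profile of the 8 were il12rb2l (Pearson r 0.999), plxnc1 (0.999), p2rx7 (0.998), tmem178 (0.998) and ctss2.1 (0.997). This is a description over 6 libraries that share their scaling, and the mean profile blends unlike members: the r of each of the 8 with it ran from -0.02 for cnp to 0.90 for mbpb, with 0.85 for mpz and 0.79 for plp1b. Of these 5, ctss2.1 encodes a cathepsin S, a lysosomal protease, and p2rx7 an ATP-gated ion channel. The signal of p2rx7 was 418 and 492 in the compound mutants, 148 and 145 in csf1ra-/-, and 52.2 and 102 in control, and that of ctss2.1 was 468 and 664 in the compound mutants, 166 and 171 in csf1ra-/-, and 64.1 and 112 in control. In both, csf1ra-/- lay between compound mutants and control, the order also shown by mbpb and not by mpz, cldnk or mbpa.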

How the data were processed

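The deposited table holds 21860 genes, with 6 signal columns headed CPM, 1 per library, and the authors' log2 fold changes and FDR p-value columns for their own comparisons, per the file headers. The signal was read as reads over an effective library size, since the columns sum to different totals. Every value was a whole multiple of 1 read (tolerance 0.001), so whole reads were recovered. Another 19 value columns were not used. HISAT2, edgeR and GRCz10 are named in the submitters' processing notes. The annotation and the way of counting is not given in the sources used here. Per the labels, brains were trypsinized, the cells went through a Percoll gradient and a GFP sort, and 50-base single reads were sequenced from cDNA of a low-input kit. No batch is named.

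The test was limma 3.58.1 in R 4.3.3 (lmFit, contrasts and eBayes with trend and robust prior) on log2 of signal plus a pseudocount of 1, for the 21316 genes whose signal reached 1 in 2 or more libraries. All 6 libraries were fitted with 3 group means, with Benjamini and Hochberg adjustment over all genes tested and a threshold of 0.05. Alternatives were edgeR 4.0.16 and DESeq2 1.42.0 on recovered reads, pseudocounts of 0.25 and 4, no filter, at least 50 reads in 2 libraries, total-read and median-ratio scaling, no robust prior, only the 4 libraries compared, the replicate number as a block, and each library left out. The limma, edgeR and DESeq2 fits were also run on simulated counts with known changes. The check there required the right direction of limma's median estimates for large changes, and it does not bear on the other steps.

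The 8 genes, the lists and the rule for named genes were chosen with earlier results of these data known. The rule named the 8 genes, up to 6 others of each myelin list by mean signal, the lineage genes detected, up to 3 genes per list of other cells and the 5 genes most alike in profile. The receptor genes csf1ra and csf1rb were added because the groups are named for them. The genes aif1l, mpeg1.1, slc7a7, cers2a, atp1b4, mdka, fabp7a, vim, id1, her4.2, tmem98, gldn and cntn1b were named after their values were seen. Symbols outside the table were not analysed here, among them mal, mobp, ermn and olig1. No coordinates are given, and no transcript lengths were used. Mean signal, which is not per length, picked the genes named within a list and weights the summed lists. The read shares and read ratios of the 8 genes are not per length either and are compared between libraries only.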

Additional observations from a re-analysis of the deposited data

How the results depend on the processing

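The counts of the 8 genes and of all genes past the test moved with the processing. For compound mutants against control, 3 of the 8 and 259 genes (185 higher, 74 lower) became 4 and 357 with edgeR, 6 and 3618 with DESeq2, 1 and 95 with a pseudocount of 0.25, 6 and 872 with at least 50 reads in 2 libraries, 2 and 175 without a filter, and 0 and 0 with only the 4 libraries compared, a fit with fewer samples. On total reads they were 1 and 310 (126 higher, 184 lower), and with median-ratio scaling 2 and 220 (135 higher, 85 lower). For csf1ra-/- against control, 0 and 0 became 0 and 8 with edgeR, 1 and 259 with DESeq2, 0 and 3 with a pseudocount of 4, 0 and 13 with at least 50 reads, 0 and 7 on total reads, 0 and 5 with median-ratio scaling and 0 and 19 with 4 libraries. For compound mutants against csf1ra-/-, 0 and 2 became 3 and 18 with edgeR, 4 and 1459 with DESeq2, 2 and 4 with a pseudocount of 4, 4 and 48 with at least 50 reads, 3 and 39 on total reads, 2 and 5 with median-ratio scaling or without the robust prior, and 0 and 0 with 4 libraries. With a replicate block, 4 of the 8 and 576 genes passed for compound mutants against control, 0 and 11 for csf1ra-/- against control, and 4 and 34 for compound mutants against csf1ra-/-. The correlation of deviations between libraries with the same number was 0.0122, 0.0180 and 0.00600 for the 3 pairs of groups, so the libraries were taken to share only a number. Leaving out each library gave 0 to 2 of the 8 and 0 to 137 genes for compound mutants against control, 0 of the 8 and 0 to 12 genes for csf1ra-/- against control, and 0 to 1 of the 8 and 0 to 8 genes for compound mutants against csf1ra-/-; the lone library left in a group was taken to vary like the other groups. For compound mutants against control, 27 genes passed without the second compound mutant library and 0 without either csf1ra-/- or either control library. The calls were lost for plp1b at an adjusted p of 0.0585 and for cldnk at 0.0520 with a pseudocount of 0.25, and for plp1b at 0.0524 without a filter and 0.0529 with median-ratio scaling. The call of mpz was lost with 4 libraries (0.132) and in 5 of the 6 omissions (0.0992 to 0.209), and held without the first compound mutant library (0.0339). Directions reversed for genes that had not passed: cnp against control in compound mutants (-0.99 to 0.66 over the omissions, above 0 at 0.10 without the first compound mutant library and at 0.66 without the second control library), plp1b in csf1ra-/- against control (0.40 with edgeR, 0.36 with DESeq2, -2.14 to 1.46 over the omissions), and, for compound mutants against csf1ra-/-, fa2h (-0.068 on total reads, -0.10 to 0.34 over the omissions) and tspan2a (-0.98 to 0.35). The cause was not tested.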
